A study of Mus musculus with 6 samples.

Results

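The kinases that phosphorylate SR proteins and the SR-like factors Tra2a and Tra2b were examined in heads of mouse embryos with reduced gene dosage of *Snrpb*, which encodes the SmB/B' proteins of the spliceosomal small nuclear ribonucleoproteins. The 8 genes *Clk1*, *Clk2*, *Clk3*, *Clk4*, *Srpk1*, *Srpk2*, *Tra2a* and *Tra2b* were chosen by symbol from the 24421 genes of the count table. The rule uses no measured value, but the set was proposed with earlier results of these data known. All 8 passed the filter on low counts, which kept 15584 genes for testing. RNA was sequenced from 3 WT libraries (labelled SnrpB +/+) and 3 libraries of heterozygotes (Het), each made from 2 pooled E9.0 heads of the same genotype with similar somite numbers. Het embryos carried one *Snrpb* *loxP* allele and the *Wnt1-Cre2* transgene, so that 1 copy of *Snrpb* was deleted in the developing brain, neural tube and neural crest cells, while the other cells of the head kept both copies. Whether WT embryos carried the transgene is not given in the sources used here. No treatment was given, the strain label was C57BL/6, and the titles also named CD1. Each library holds a pair of embryos, so its values are means over 2 heads.

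SR proteins bind exonic enhancers and recruit the spliceosome to nearby splice sites, and the phosphorylation of their arginine-serine domains sets where they are in the cell and what they bind. SRPK kinases act mainly in the cytoplasm and prepare SR proteins for import into the nucleus, whereas CLK kinases act in the nucleus and release SR proteins from speckles. Tra2 proteins bind AGAA-rich exonic enhancers and activate the exons that contain them. Several of these genes are known to limit their own output through RNA processing: CLK transcripts can skip exon 4 or keep its flanking introns in the nucleus, and Tra2 transcripts can include an exon that sends them to nonsense-mediated decay. Counts per gene add all these forms together, so the levels given here do not separate coding from noncoding transcripts.

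Sequences from the mouse annotation (Gencode M21, GRCm38/mm10) show where such forms arise. In all 4 CLK genes, introns 3 and 4, on either side of exon 4, were annotated as retained in at least 1 transcript. Their 5′ splice sites, read on the strand of the gene as the last 3 bases of the exon and the first 6 of the intron, are shown with the GT in capitals because this is the sequence that U1 pairs with.
Clk1 intron 3: gggGTatga
Clk4 intron 3: tcgGTatga
Clk2 intron 3: tcaGTgagt
Clk3 intron 3: tcgGTgagt
Clk1 intron 4: gatGTatag
Clk4 intron 4: gatGTatag
Clk3 intron 4: gatGTacag
Clk2 intron 4: gatGTacaa
*Clk1* and *Clk4* shared the intronic 6 bases of both sites, and *Clk2* and *Clk3* shared those of intron 3. Of 7419 annotated retained introns of protein-coding genes, 15.3% began with GTGAGT, the most frequent of all, as intron 3 of *Clk2* and *Clk3* does. GTATGA, which opens intron 3 of *Clk1* and *Clk4*, began 0.903% of them. GTATAG, which opens intron 4 of the same pair, began 0.189%, while GTACAG and GTACAA began 0.795% and 0.229%.

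Exon 4 itself was 91 bases long in *Clk1* (chr1:58420121-58420211, minus strand) and in *Clk4* (chr11:51273078-51273168, plus strand), 85 bases in *Clk2* (chr3:89169618-89169702, plus strand) and 97 bases in *Clk3* (chr9:57758627-57758723, minus strand). It was coding throughout, and none of these lengths is a multiple of 3, so a transcript without it changes reading frame. The exons of *Clk1* and *Clk4* are shown because this pair of genes is followed together below, and capitals mark the 6 positions at which they differ.
Clk1 exon 4: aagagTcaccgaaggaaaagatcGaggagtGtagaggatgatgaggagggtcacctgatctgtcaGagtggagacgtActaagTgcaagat
Clk4 exon 4: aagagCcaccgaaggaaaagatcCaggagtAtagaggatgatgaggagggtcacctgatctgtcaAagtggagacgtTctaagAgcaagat
Over 91 bases, 85 (93.4%) were identical. Transcripts that skip this exon numbered 3 for *Clk1*, 1 for *Clk2*, 1 for *Clk3* and 3 for *Clk4*.

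In *Tra2a* and *Tra2b*, the exons of the decay transcripts Tra2a-202 (306 bases, chr6:49252803-49253108, minus strand) and Tra2b-206 (276 bases, chr16:22258986-22259261, minus strand) were searched on the sense strand for AGAA, the core of the Tra2 binding motif. They held 13 and 12 copies. The stretches below, of 30 bases each, are those with the most copies, in capitals.
Tra2a-202: aaactcaatgaAGAAtgaagAGAAgtAGAA
Tra2b-206: tgaaAGAAgtcAGAAtttgaaacggaAGAA
Each of these 30-base stretches held 3 copies (chr6:49252859-49252888 and chr16:22259052-22259081). In windows of the same lengths over protein-coding transcripts the median was 2 copies, and 0.102% of windows held at least as many as the exon in either case. Overlapping copies were counted separately in the exons but not in the windows. The window counts may therefore be too low, and 0.102% is a lower bound. These matches describe the sequence, and binding was not measured.

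The 8 genes lie apart from each other in the genome: *Clk1* at chr1:58410189-58424066, *Clk2* at chr3:89164795-89176921, *Clk3* at chr9:57750624-57765860 and *Clk4* at chr11:51261730-51281766. *Srpk1* lies at chr17:28587648-28622709, *Srpk2* at chr5:23503264-23684617, *Tra2a* at chr6:49243924-49264033 and *Tra2b* at chr16:22244549-22266005. The annotation gives a large part of the exon length of these genes to transcripts other than coding ones. Bases outside every protein-coding transcript made up 77.9% of the annotated exon bases of *Clk1*, 56.8% of *Clk2*, 58.4% of *Clk3* and 62.2% of *Clk4*. The share was 50.1% for *Srpk1*, 48.2% for *Srpk2*, 74% for *Tra2a* and 61.7% for *Tra2b*. Retained-intron transcripts account for most of these bases in each gene. For *Clk1*, 1796 of 8132 annotated bases belong to its coding transcript. The counts were made with an earlier annotation, which was not used here, so the length they draw on is not known.

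**Figure D1:**
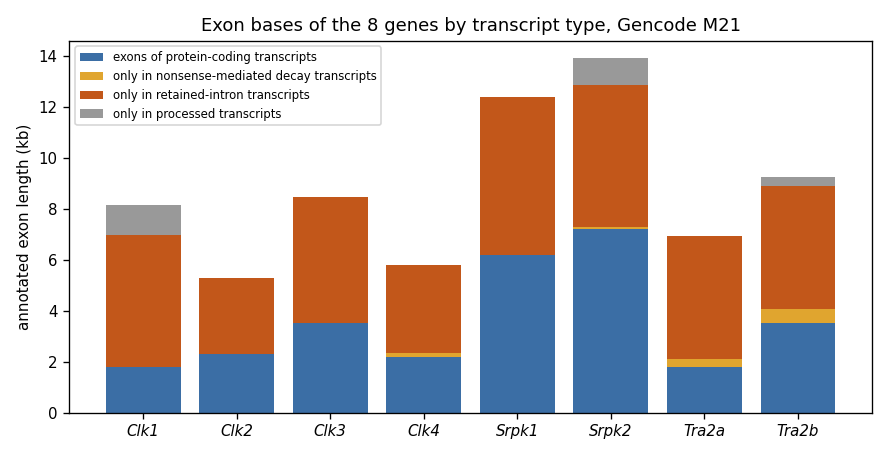
Annotated exon length of each gene in kilobases (y axis), stacked by the type of transcript that holds the bases (Gencode M21). Exons of coding transcripts hold 1796 of 8132 bases in *Clk1* and 7205 of 13901 in *Srpk2*.

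Depth lay between 36378803 and 58946111 counted reads in WT and between 42398206 and 74909774 in Het. *Snrpb* itself stood at 429.9, 438.2 and 414.2 CPM (counts scaled to a library of 1e+06 reads) in WT and at 436.5, 412.4 and 430.3 CPM in Het, a log2 difference of -0.0036 (SE 0.04, edgeR adjusted *P* = 0.990). The count therefore does not show the deletion. The deletion takes out only part of the gene, in part of the cells, and the reason for the similar counts was not tested. Head neural markers were present in every library, with a summed level of 412.2 to 486.7 CPM in WT and 391.9 to 435.3 CPM in Het. Of these 8 markers, 7 were lower in Het and 1 was higher (median log2 -0.11), none past an unadjusted edgeR *P* of 0.05. The 5 posterior Hox genes of the marker list had 0 to 5 counts in each library. *T*, a gene of the notochord and tail bud from the same list, had 63 to 347 counts per library, or 1.73 to 3.64 CPM in WT and 3.47 to 4.56 CPM in Het (log2 0.52). Neural crest markers summed to 125.2 to 161.3 CPM in WT and 130.0 to 148.8 CPM in Het, and embryonic erythroid markers to 860.4 to 1468.0 and 868.7 to 1189.4 CPM, with adult *Hba-a1* at 0 counts. Libraries also differed in other tissue: summed visceral endoderm markers reached 24.0 CPM in WT 1 against 4.53 to 5.75 CPM in the other 5, and summed cardiac markers ran from 9.67 CPM in WT 1 to 103.8 CPM in Het 3. In such whole heads, fewer cells of a type and less RNA per cell cannot be told apart. The 2 heads of a pool came from different litters, and whether pools of different libraries shared litters is not given, so *P*-values measure the spread between these pools.

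Whether *Snrpb* heterozygosity changed the level of these genes was asked by a comparison of Het with WT. None of the 8 genes passed an adjusted *P* of 0.05 with edgeR, where 0.00642% of all tested genes did, which is the single gene *A3galt2* (named after its value was seen). DESeq2 called none of them either, and 0.651% of the genes it tested. At an unadjusted edgeR *P* under 0.05, *Clk1* and *Clk4* were higher in Het, against 4.34% of all tested genes, and *Srpk2* was lower, against 4.09%. In those 3 genes, 37.5% of the 8, the WT and Het libraries did not overlap, against 15.2% of all tested genes. All Het libraries were above all WT for *Clk1* and *Clk4* (8.32% of all tested genes). For *Srpk2*, all Het libraries were below all WT (6.92%). The median log2 difference over the 8 was 0.02, against 0.00 over all tested genes.

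**Figure D2:**
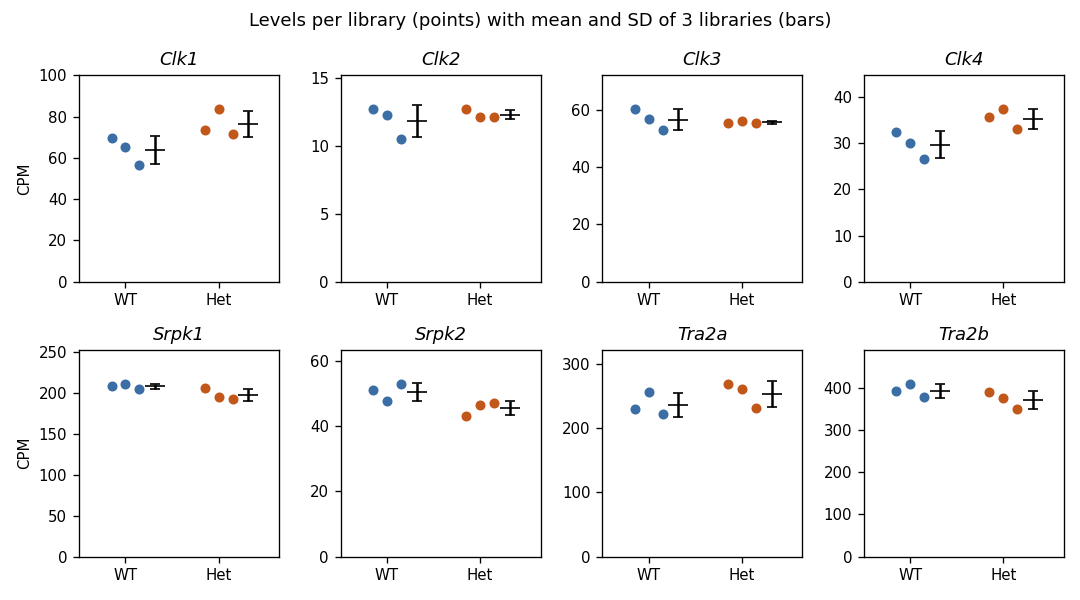
Level of each gene in CPM (y axis, from 0) in the 3 WT and the 3 Het libraries (points), with the mean and SD of each group (cross and bar). *Clk1* and *Clk4* of all Het libraries sit above all WT libraries, *Srpk2* of all Het libraries sits below, and the groups overlap for the other 5 genes.

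*Clk1*, a dual-specificity kinase that phosphorylates serines, threonines and tyrosines, stood at 69.7, 65.3 and 56.4 CPM in WT and at 73.6, 83.5 and 71.6 CPM in Het. WT 3 was the lowest library and Het 2 the highest, and the lowest Het library, at 71.6 CPM, was above the highest WT library, at 69.7 CPM. The means were 63.8 ± 6.77 and 76.2 ± 6.37 CPM (SD, n = 3 each). This is a 1.19-fold difference (log2 0.26, SE 0.09, 95% interval 0.05 to 0.46), which did not pass the test across all genes (edgeR adjusted *P* = 0.485, and DESeq2 adjusted *P* = 0.267).

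*Clk4*, the closest paralog of *Clk1*, stood at 32.4, 30.0 and 26.5 CPM in WT and at 35.6, 37.3 and 33.0 CPM in Het. The lowest and the highest library were the same as for *Clk1*. The log2 difference was 0.25 (SE 0.08, 95% interval 0.07 to 0.43, edgeR adjusted *P* = 0.437), about as large as that of *Clk1*.

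The other CLK kinases gave overlapping groups. *Clk2* stood at 12.7, 12.3 and 10.5 CPM in WT and at 12.7, 12.1 and 12.1 CPM in Het, with a log2 difference of 0.05 (95% interval -0.15 to 0.25, edgeR adjusted *P* = 0.893). *Clk3* stood at 60.2, 56.8 and 52.8 CPM in WT and at 55.4, 56.2 and 55.4 CPM in Het, with a log2 difference of -0.02 (95% interval -0.15 to 0.10, edgeR adjusted *P* = 0.924). The direction of *Clk2* turned without WT 3 (-0.02) and that of *Clk3* without WT 1 (0.02). The intervals leave room for a difference of up to 0.25 in *Clk2* but of no more than 0.10 upward in *Clk3*.

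The level of *Clk2* is uncertain for another reason. The count table holds a read-through gene, Clk2-scamp3, that spans *Clk2* and its neighbour *Scamp3*, and reads on exons shared by several genes may be counted for none. The read-through gene had 1 count in all and *Scamp3* had 821 over the 6 libraries. Ambiguous reads were not analysed here. *Clk3* shares 1284 exon bases with *Edc3* on the other strand, and *Srpk2* shares 972 with *Kmt2e*. How strand was handled in the counting is not given in the sources used here, so reads on those bases cannot be assigned with certainty.

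*Srpk1*, the SR protein kinase found in most proliferating tissues, stood at 208.8, 210.7 and 205.0 CPM in WT and at 206.3, 194.8 and 192.5 CPM in Het. Its log2 difference was -0.07 (SE 0.04, 95% interval -0.16 to 0.02, edgeR adjusted *P* = 0.661), and only Het 1 reached the WT range. *Srpk1* was the steadiest of the 8 genes in WT, with an SD of 0.0205 on the log2 scale, against 0.156 for *Clk1* and a median of 0.108 over all tested genes.

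*Srpk2*, its relative known mainly from the nervous system, stood at 51.1, 47.6 and 52.9 CPM in WT and at 43.1, 46.6 and 47.1 CPM in Het. All Het libraries were lower than all WT libraries, though the nearest pair, Het 3 and WT 2, stood at 47.1 and 47.6 CPM. The log2 difference was -0.15 (SE 0.06, 95% interval -0.28 to -0.02, edgeR adjusted *P* = 0.537). The remaining gene of the family, *Srpk3*, a kinase of muscle, was near the limit of detection with 25 to 91 counts per library, and its log2 difference was 0.43 (95% interval -0.06 to 0.92, edgeR adjusted *P* = 0.636), or 0.27 without WT 3.

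*Tra2b*, the more widely studied of the Tra2 activators, stood at 392.7, 410.2 and 378.9 CPM in WT and at 392.0, 378.0 and 350.0 CPM in Het. Its log2 difference was -0.08 (SE 0.05, 95% interval -0.19 to 0.04, edgeR adjusted *P* = 0.700). *Tra2a* stood at 228.9, 256.2 and 222.3 CPM in WT and at 268.3, 261.1 and 230.4 CPM in Het, with a log2 difference of 0.10 (SE 0.07, 95% interval -0.06 to 0.27, edgeR adjusted *P* = 0.729). The groups overlapped for both. Neither gene could be told from WT beyond the spread between libraries. Of the 100-base windows of the coding transcript of *Tra2b*, 13% also occur in transcripts of Gm10254 or Gm14639, so that single reads of that length have no unique origin there. No such window was found for the other 7 genes.

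**Figure D3:**
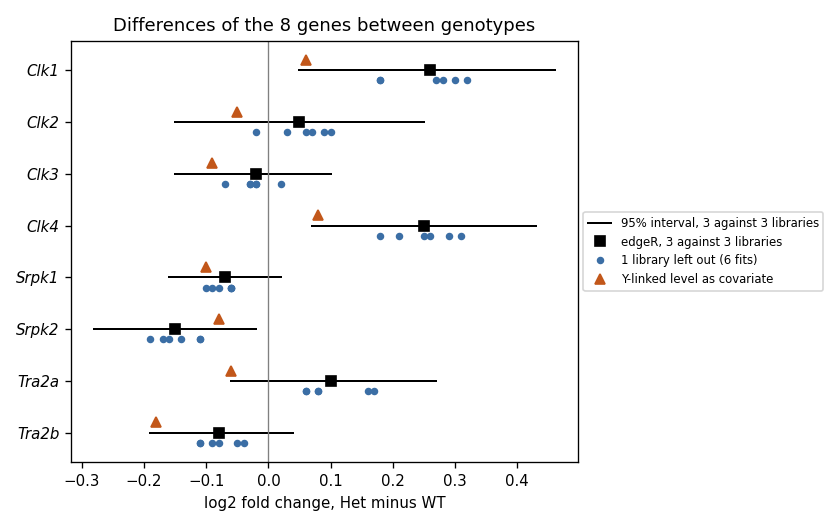
Log2 fold change of each gene, Het minus WT (x axis), as the edgeR value with its 95% interval (square and line), in the 6 fits that leave out 1 library (dots) and in the fit with the Y-linked level as a covariate (triangle). The intervals of *Clk1*, *Clk4* and *Srpk2* lie to one side of 0, and the covariate takes *Clk1* from 0.26 to 0.06 and *Clk4* from 0.25 to 0.08.

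The labels give no sex for the embryos, and the level of Y-linked genes moved with *Clk1* and *Clk4*. The mean log2 CPM of the Y-linked genes *Ddx3y*, *Eif2s3y*, *Kdm5d* and *Uty* was 4.62, 4.88 and 3.93 in WT and 5.41, 5.82 and 4.78 in Het. WT 3 was lowest and Het 2 highest, as for *Clk1*, and the groups overlapped. *Xist*, which is expressed from the inactive X chromosome, was highest in WT 3 (154.6 CPM) and lowest in Het 2 (0.368 CPM). With the Y-linked level as a covariate, the log2 difference of *Clk1* was 0.06 (SE 0.09) and that of *Clk4* 0.08 (SE 0.09), and *Srpk2* went to -0.08 (SE 0.08). *Tra2a* turned to -0.06 (SE 0.07) and *Clk2* to -0.05 (SE 0.13), while *Tra2b* went to -0.18 (SE 0.06). All had an edgeR adjusted *P* of 0.999 in that fit. All 4 Y-linked genes had a higher mean in Het (log2 0.75 to 0.96). The covariate thus goes partly with genotype, and this fit cannot fully tell them apart. The part of sex in these values was not tested in any other way.

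For *Clk1* and *Clk4*, no single library moved the value as far as this covariate did. Leaving out each library in turn gave log2 differences of 0.18 to 0.32 for *Clk1*, 0.18 to 0.31 for *Clk4* and -0.19 to -0.11 for *Srpk2*. Without WT 1, the library with the visceral endoderm signal, *Clk1* was at 0.32 and *Clk4* at 0.31. The lowest values of *Clk1* came without WT 3 and without Het 2, both 0.18. The part of the endoderm and cardiac tissue in these values was otherwise not tested.

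Ratios of paralogs within a library do not depend on depth or normalization. The ratio of *Clk4* to *Clk1* counts was 0.465, 0.460 and 0.470 in WT and 0.484, 0.447 and 0.462 in Het. It was thus nearly constant over libraries in which *Clk1* itself ran from 56.4 to 83.5 CPM. The difference in log2 ratio was -0.0034 (two-sided exact permutation test, *P* = 0.900, adjusted over 3 ratios 0.900).

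The ratio of *Tra2a* to *Tra2b* was 0.583, 0.625 and 0.587 in WT and 0.684, 0.691 and 0.658 in Het. All Het libraries were above all WT libraries, with means of 0.598 ± 0.0231 and 0.678 ± 0.0173 (SD, n = 3 each), a 1.13-fold difference. The exact permutation *P* was 0.10, the smallest that 3 against 3 libraries can give, and 0.300 after adjustment over 3 ratios, so that this test cannot bring the ratio past 0.05. The difference was 0.16 to 0.21 in log2 when each library was left out. Neither gene was called on its own, and the difference in the ratio combines a higher *Tra2a* mean with a lower *Tra2b* mean. The ratio was not tested with the Y-linked covariate, with which *Tra2a* was at -0.06 and *Tra2b* at -0.18.

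The ratio of *Srpk2* to *Srpk1* was 0.245, 0.226 and 0.258 in WT and 0.209, 0.239 and 0.244 in Het. The groups overlapped, with a difference in log2 ratio of -0.07 (two-sided exact permutation test, *P* = 0.50, adjusted 0.750). Without Het 1 it was -0.0045.

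**Figure D4:**
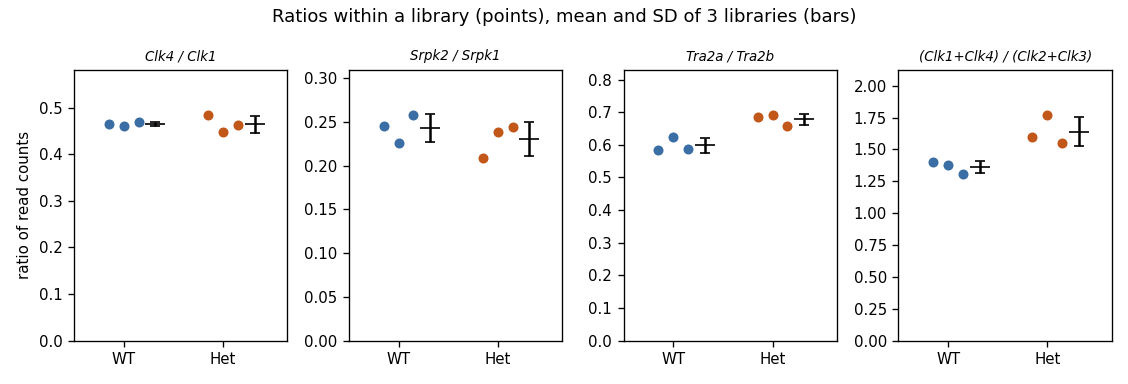
Ratio of read counts (y axis, from 0) within each library for the 3 pairs of paralogs and for *Clk1* plus *Clk4* over *Clk2* plus *Clk3*, with the mean and SD of 3 libraries per group (cross and bar). The *Clk4* to *Clk1* ratio stays between 0.447 and 0.484, while the Tra2 ratio and the last ratio are higher in all Het than in all WT libraries.

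The CLK counts of a library were also divided among the 4 genes, as shares of reads that are not corrected for length. *Clk1* gave 39.4% ± 0.695 of the CLK counts in WT and 42.4% ± 1.51 in Het (SD, n = 3 each), and *Clk4* gave 18.3% ± 0.193 and 19.7% ± 0.449. *Clk3* gave 35.0% ± 0.951 in WT and 31.0% ± 1.23 in Het, and *Clk2* gave 7.30% ± 0.179 and 6.87% ± 0.426. Shares depend on each other, so higher shares of *Clk1* and *Clk4* lower those of the other genes. By level, the log2 differences were -0.02 for *Clk3* and 0.05 for *Clk2*. The ratio of *Clk1* plus *Clk4* to *Clk2* plus *Clk3* was 1.40, 1.38 and 1.31 in WT and 1.60, 1.77 and 1.55 in Het. This grouping was chosen after the values were seen and was not tested. The *Clk2* counts in these shares and in this ratio carry the uncertainty about shared exons given above.

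Levels of different genes were set against each other per kilobase of the exons of coding transcripts. On that scale, in WT, *Tra2a* (130.8 ± 9.97 CPM per kb, SD, n = 3) and *Tra2b* (111.5 ± 4.44) were the highest, and their libraries did not overlap. *Clk1* (35.5 ± 3.77) and *Srpk1* (33.7 ± 0.477) came next and overlapped. *Clk3* (16.1 ± 1.05) and *Clk4* (13.5 ± 1.35) followed, with WT libraries that did not overlap, although in Het they did, at 15.8 ± 0.135 and 16.1 ± 0.976. *Srpk2* (7.02 ± 0.369), *Clk2* (5.17 ± 0.513) and *Srpk3* (0.453 ± 0.107) were the lowest, each apart from its neighbours in every WT library. The place of *Clk2* carries the uncertainty about shared exons given above. The order rests on the choice of length: per kilobase of all annotated exons, *Tra2b* (42.7 ± 1.70) was above *Tra2a* (34.0 ± 2.59), and *Srpk1* (16.8 ± 0.238) was above *Clk1* (7.85 ± 0.833).

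The genes whose pattern over the 6 libraries was most like that of *Clk1* were found by the root mean square difference of centred log2 CPM. Of 15583 other genes, *Clk4* was the nearest, at 0.0350. *Gpr162* (0.0422), an orphan receptor, and *Irf9* (0.0464), a factor of interferon signalling, came next. *Clk2* ranked 729 and *Clk3* 2236. For *Tra2b*, the nearest were *Fdps* (0.0166), an enzyme of isoprenoid synthesis, *Mad2l2* (0.0170) and *Cst3* (0.0188), a secreted protease inhibitor. *Srpk1* ranked 55 (0.0352) and *Tra2a* 5372. These points share libraries and depth, and genes with little spread lie close to each other on this measure.

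Other genes of SR protein phosphorylation were described by lists. No gene of any list below passed an adjusted *P* of 0.05 with edgeR. Of 11 genes of other kinases tied to SR proteins or transcription, 2 were higher and 2 lower in Het at an unadjusted *P* under 0.05, against 4.34% and 4.09% of all tested genes. The groups did not overlap for 3 with Het above and 2 with Het below, against 8.32% and 6.92%, and the median log2 difference was 0.01. *Dyrk3*, a kinase that dissolves nuclear speckles, stood at 29.9, 28.1 and 26.6 CPM in WT and at 33.7, 33.4 and 35.2 CPM in Het (log2 0.28, SE 0.06, edgeR adjusted *P* = 0.309), and DESeq2 called it at an adjusted *P* of 0.0416. *Prpf4b*, a kinase of the pre-catalytic spliceosome, was at 0.13, and the transcription-linked kinases *Cdk13* and *Cdk12* were at -0.14 and -0.12. With the Y-linked covariate, *Prpf4b* went to 0.08 and *Cdk13* to -0.08, while *Dyrk3* was at 0.27.

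Of 9 genes for phosphatases and import receptors of SR proteins, none was past an unadjusted *P* of 0.05 in either direction, with log2 differences of -0.09 to 0.07. *Tnpo3*, the import receptor of phosphorylated SR proteins, was at 274.3 ± 0.714 CPM in WT and 276.2 ± 2.12 CPM in Het (named after its value was seen).

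Among the 11 SR proteins, the substrates of these kinases, 2 were higher at an unadjusted *P* under 0.05 (4.34% of all tested genes) and none lower (4.09%), and the median log2 difference was 0.05. *Srsf5* stood at 254.0, 258.4 and 267.5 CPM in WT and at 296.5, 307.7 and 303.8 CPM in Het. This is a log2 difference of 0.22 (SE 0.04, edgeR adjusted *P* = 0.235), and DESeq2 called it at an adjusted *P* of 0.00201. With the Y-linked covariate it was 0.24. *Srsf11* was at 0.10, and the groups did not overlap for 4 of the 11, all with Het above WT (8.32% of all tested genes). *Srsf1* and *Srsf3*, which had the most counts of the list without correction for length, were at 0.00 and 0.06.

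Of 20 SR-related proteins, 2 were higher at an unadjusted *P* under 0.05 (4.34% of all tested genes) and none lower (4.09%), with a median of 0.03. The groups did not overlap for 4 of the 20, all with Het above WT (8.32%). *Luc7l3*, a U1-associated factor, stood at 145.9, 162.1 and 151.8 CPM in WT and at 184.3, 188.0 and 169.3 CPM in Het (log2 0.24, SE 0.05, edgeR adjusted *P* = 0.348, DESeq2 adjusted *P* = 0.0556). *Rbm39*, a partner of U2AF, was at 0.15 (SE 0.04, edgeR adjusted *P* = 0.424). With the Y-linked covariate they were at 0.14 and 0.09.

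Of 9 other genes known to keep introns in the nucleus, 1 was higher and 2 were lower at an unadjusted *P* under 0.05, against 4.34% and 4.09% of all tested genes. They were *Eif4a2* (log2 0.20, SE 0.05), and *Mgea5* and *Rbm5* (both -0.11, SE 0.04). With the Y-linked covariate, *Eif4a2* went to 0.08. The groups did not overlap for 3 genes with Het above and 2 with Het below (8.32% and 6.92%), and the median was 0.04. *Mgea5*, the O-GlcNAcase gene, entered the list under this older symbol. Of 6 genes with exons that Tra2 proteins activate, such as *Nasp* (-0.03) and *Ktn1* (-0.06), none was past that threshold, the groups did not overlap for 2 with Het below WT (6.92%), and the median was -0.05.

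CLK activity is known to depend on temperature, and CLK transcripts respond to stress. Of the cold-induced genes *Rbm3* and *Cirbp*, *Rbm3* stood at 263.9, 297.9 and 286.0 CPM in WT and at 312.9, 313.3 and 310.8 CPM in Het (log2 0.14, SE 0.05, edgeR adjusted *P* = 0.455). *Cirbp* was at 0.13 (SE 0.06). None of 9 heat shock genes was past an unadjusted *P* of 0.05, with *Hspa8* at -0.28 (SE 0.17). Of 10 immediate early genes, which rise with handling, 1 was lower at an unadjusted edgeR *P* under 0.05 (4.09% of all tested genes). It was *Jun* (log2 -0.22, SE 0.06, edgeR adjusted *P* = 0.424). None was higher at that threshold (4.34%), while 4 of the 10 log2 differences were above 0 and 6 below. The part of handling in the values of the kinases was not tested.

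**Figure D5:**
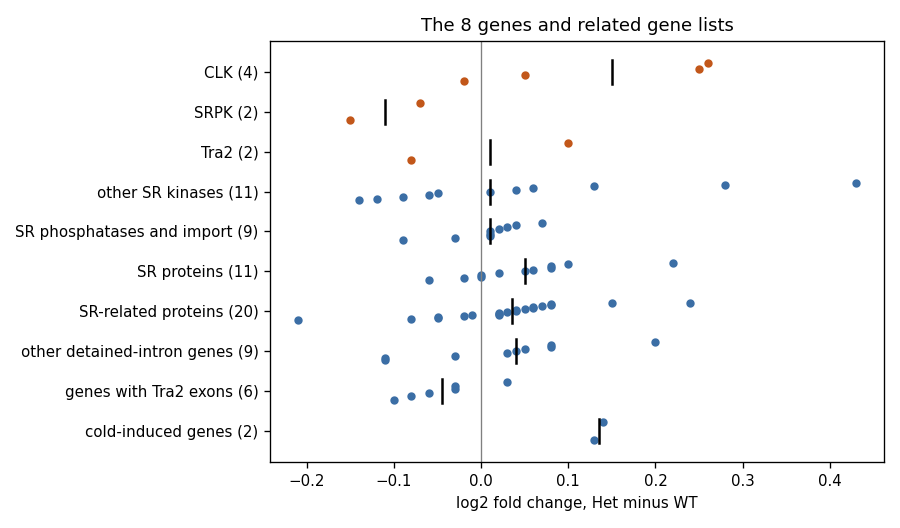
Log2 fold change, Het minus WT (x axis), of the 8 genes by family (orange) and of the genes of 7 related lists (blue), with the number of genes in brackets and the median of each list as a black line. *Clk1* (0.26) and *Clk4* (0.25) lie beside *Dyrk3* (0.28), *Luc7l3* (0.24) and *Srsf5* (0.22), and most other genes lie between -0.15 and 0.15. The highest value is that of *Srpk3* (0.43), which had few counts, and the lowest that of *Srrm2* (-0.21).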

How the data were processed

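The deposited table gives whole-number read counts for each gene symbol, not normalized by the authors. Per the paper's methods, libraries were stranded, rRNA-depleted total RNA, reads were trimmed and mapped to mm10 with STAR, and counted per gene with HTSeq, whereas the submitters' processing notes name featureCounts. The strand setting is not given in the sources used here. Counts were tested with edgeR (version 4.0.16, R 4.3.3): TMM, filterByExpr, robust quasi-likelihood test, two-sided, Benjamini-Hochberg adjustment over 15584 genes. DESeq2 (version 1.42.0) was an alternative. CPM values use TMM-scaled library sizes. Standard errors are on the log2 scale, and intervals are at 95%. The scripts were tested on simulated counts. Other alternatives were DESeq2 size factors, no scaling, other filters, a Y-linked covariate, a replicate block, added counts in ratios, and each library left out. Libraries differed beyond counting noise in every pair, with 10.2 to 28.6 for chi-square divided by its degrees of freedom, so all 6 were kept as separate samples.

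The 8 genes and all lists were chosen with earlier results of these data known. In each list, the genes named are those past the adjusted threshold, or else up to 4 with the smallest unadjusted *P* under 0.05, and up to 2 with the highest level. Those named for level are given in part. *Srpk3* and the 3 genes nearest to *Clk1* and to *Tra2b* were also named. Lengths, coordinates and sequences come from the transcripts of Gencode M21, a later annotation than that of the authors. All 8 genes and 23376 symbols in total matched it by name. Figures were drawn with matplotlib.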

Additional observations from a re-analysis of the deposited data

How the results depend on the processing

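None of the 8 genes passed an adjusted *P* of 0.05 under any of the 13 alternatives, and 100 of 104 values kept their direction. The exceptions were *Clk2* with the Y-linked covariate (-0.05) and without WT 3 (-0.02), *Clk3* without WT 1 (0.02) and *Tra2a* with the covariate (-0.06). When 1 library was left out, *Clk2* ran from -0.02 to 0.10, *Clk3* from -0.07 to 0.02, *Srpk1* from -0.10 to -0.06, *Tra2a* from 0.06 to 0.17 and *Tra2b* from -0.11 to -0.04. *Snrpb* turned with no scaling (0.0074) and without WT 2 or Het 2 (both 0.02), with values from -0.03 to 0.02 when 1 library was left out. The difference in log2 ratio of *Clk4* to *Clk1* ran from -0.03 to 0.02 when 1 library was left out and turned without WT 3 (0.0049), Het 2 (0.02) and Het 3 (0.00015). The ratios kept their direction with 0.5 or 5 counts added. The number of all tested genes past the threshold was 1, and 84 with DESeq2, 11 without a filter, 0 with the covariate and 0 to 6 without 1 library. *Dyrk3* (adjusted *P* = 0.0416) and *Srsf5* (0.00201) passed with DESeq2, and *Luc7l3* did not. The cause of these changes was not tested.

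Replicate numbers were not taken to pair the libraries: the correlations of same-numbered libraries were 0.17, 0.03 and 0.36, against -0.25 to 0.09 for other pairs, and WT 2 and Het 2 did not correlate best with their own number. With the replicate block, *Clk1* was at 0.26 (edgeR adjusted *P* = 0.348), *Clk4* at 0.26 (0.323) and *Srpk2* at -0.15, and 1 gene was called, no member among them. For the Tra2 ratio, the smallest exact *P* of 3 pairs is 0.25. The 3 libraries per group, each a pool, limit what differences could be seen. Gene counts do not tell forms with skipped exon 4, retained introns or decay exons from the other forms.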
